A study of Mus musculus with 6 samples.

Results

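Fatty acid oxidation was examined through 31 genes, listed by symbol, whose products take up and activate fatty acids, carry them into mitochondria as carnitine esters and oxidise them, together with 2 nuclear receptors that control such genes. The rule for the list names genes by their place in the pathway and uses no measured value, although it was drawn up with earlier results of these data known. All 31 symbols were found among the 23282 lines of each library. Values are log2 of normalized CPM (reads scaled to library size) plus 1. Differences are AMPK KO minus WT on this scale, tested with limma, a linear model fitted over all genes with a mean of at least 1, and the threshold is an adjusted p of 0.05 (Benjamini-Hochberg over all tested genes). In this way 28 of the 31 could be tested.

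CD4 T cells of C57BL/6 mice were profiled by RNA-seq, in 3 samples from WT and 3 from AMPK KO mice. AMPK is a kinase that senses low cellular energy, and Prkaa1 encodes its catalytic subunit α1. WT mice were Prkaa1fl/flCD4Cre-neg, and AMPK KO mice carried the same floxed Prkaa1 with CD4Cre, a recombinase driven by the Cd4 promoter, so that the floxed gene is shared by both groups. In T cell development CD4Cre acts before the CD4 and CD8 lineages part, and cells other than T cells keep the floxed gene. The mice were described as female and were 6 to 8 weeks old. Cells from spleen and lymph nodes rested for 1 h and were then stimulated with anti-CD3 and anti-CD28 (2 µg/mL each), for 24 h by the sample labels and 6 h by the published methods. QuantSeq libraries, which read only the 3′ ends of transcripts, were made from 500 ng of total RNA. The study calls the samples biologically independent, but the labels do not tie each one to an animal, so the p values measure the spread between these samples.

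In fatty acid oxidation, long-chain fatty acids are first joined to coenzyme A, and Cpt1a, at the outer mitochondrial membrane, then makes the carnitine ester that can enter the organelle. Inside, repeated cycles of dehydrogenation, hydration, a second dehydrogenation and thiolysis shorten the chain. Malonyl-CoA inhibits Cpt1a, and AMPK is known to relieve this block by phosphorylating acetyl-CoA carboxylase, a control that acts on proteins and need not appear in RNA. Resting and memory T cells are known for using this pathway, whereas activated T cells turn to glycolysis.

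The promoters of Cpt1a and Acadm are shown first, because these are the 2 genes of the list that lay lower in AMPK KO with no overlap between the groups. Each sequence holds the 250 bases before a RefSeq transcription start (GRCm38.p6) and is written 5′ to 3′ on the strand of the gene. The capitals mark TGACCT, the reverse complement of AGGTCA, a core motif bound by many nuclear receptors, PPARs among them. The Cpt1a window is chr19:3323051-3323300 on the plus strand, and its motif begins 94 bases before the start. This RefSeq start lies inside the Cpt1a gene of GENCODE M21, downstream of the start annotated there. The Acadm window is chr3:153944644-153944893 on the minus strand, and its motif begins 249 bases before the start.
Cpt1a: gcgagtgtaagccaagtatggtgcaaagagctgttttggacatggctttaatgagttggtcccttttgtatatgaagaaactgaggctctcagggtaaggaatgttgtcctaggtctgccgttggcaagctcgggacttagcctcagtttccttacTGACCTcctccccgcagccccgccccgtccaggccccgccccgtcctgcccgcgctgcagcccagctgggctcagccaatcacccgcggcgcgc
Acadm: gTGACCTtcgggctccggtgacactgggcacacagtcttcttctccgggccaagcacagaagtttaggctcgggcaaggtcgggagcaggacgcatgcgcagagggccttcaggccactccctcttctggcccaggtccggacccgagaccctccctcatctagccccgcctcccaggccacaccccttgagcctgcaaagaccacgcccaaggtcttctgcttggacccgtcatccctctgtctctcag
RefSeq windows were found for 26 of the 31 genes, 29 windows in all, and Decr1, Acaa2, Cpt1b, Acat1 and Crat had none. On either strand, AGGTCA occurred in 4 of the 29, those of Acadm, Acadvl, Cpt1a and Echs1, and in 14.0% of 32851 windows of all genes. A direct repeat of AGGTCA with 1 base of any kind between the copies, the arrangement known for PPAR sites, was in none of the 29 and in 0.0335% of all windows. The longer form TNAAGGTCA, known for estrogen-related receptors, was likewise in none of the 29 and in 1.14% of all windows. Both longer motifs contain the core motif. A match is a description of letters, and its absence says only that these letters are not in the window.

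The targeted gene itself was examined before the list. Prkaa1 (chr15:5143861-5181899, GRCm38) had log2 values of 4.64, 5.24 and 4.86 in WT and of 4.08, 4.72 and 4.67 in AMPK KO. The groups overlapped, and the difference of −0.43 (SE 0.25) did not pass the test (limma, adjusted p = 0.357; exact permutation p = 0.3). The sources used here do not say which exons are floxed, and reads at the 3′ end would lie outside a deletion further upstream, so this level does not check the labels. Prkaa2, the gene of the α2 subunit, had 0 reads in all 6 libraries.

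Depth was similar between libraries but their make-up was not. The WT libraries held 9575096 to 10168121 reads and the AMPK KO libraries 10515155 to 11185360. Rn45s, the ribosomal RNA precursor, took 22.4% ± 2.21 (SD, n = 3) of them in WT and 9.89% ± 1.24 in AMPK KO, which left 7194291 to 8064287 reads elsewhere in WT and 9623714 to 10025160 in AMPK KO. Xist, expressed from the inactive X chromosome of female cells, had 8 to 32 reads per WT library and 1998 to 2876 per AMPK KO library. The WT values are at odds with the description of the mice as female, and the sex of the mice and the genotype cannot be told apart. Markers of other cells differed as well. All 11 macrophage markers had higher means in AMPK KO, 6 of them past the threshold, and their summed level was 333 to 373 CPM in WT and 635 to 1209 in AMPK KO. All 8 T cell markers had lower means, with 3 past the threshold (Cd3e, Cd3g and Cd28), and a sum of 2053 to 2247 in WT against 1519 to 1932 in AMPK KO. The CD8 T cell markers went the other way: Cd8a and Cd8b1 differed by 0.34 and 0.38, neither past the threshold, and their sum was 231 to 305 in WT and 321 to 376 in AMPK KO. Among the tested markers of other blood cells, Jchain of plasma cells was higher and Ltf of neutrophils was lower past the threshold. Cd4 itself was read in every library, at log2 values of 6.53 to 6.83 in WT and 6.14 to 6.55 in AMPK KO. Cd8b1 lay above it in each library, at 7.165 to 7.608 in WT and 7.585 to 7.984 in AMPK KO. In linear means, Cd4 had 103 CPM in WT and 80.1 in AMPK KO, and the macrophage marker Csf1r had 175 and 359. Hba-a1 of red blood cells had 2524 and 2153, and S100a8 of neutrophils had 366 and 256. In bulk RNA, fewer cells of a type and less RNA per cell cannot be told apart.

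No gene of the list passed the threshold in this comparison of genotypes. Of the 28 tested genes, 0 passed an adjusted p of 0.05 in limma, whereas 5.65% of all 11279 tested genes did (2.54% higher and 3.1% lower). That share rests on 637 calls, which became 127 to 1243 when 1 sample was left out (fewest when WT 1 was, most when AMPK KO 2 was), while the count in the list stayed at 0 each time. With no adjustment, 4 of 28 had p below 0.05 (14.3%; 2 higher and 2 lower), against 21.3% of all genes (10.6% higher and 10.7% lower), and limma voom on recovered reads also called 0 after adjustment and 4 before it. The groups did not overlap for 4 of the 28 (14.3%), against 25.6% of all genes. Both shares lay below those of all tested genes, and the gap was not tested. Slc27a4 and Acsl1 were the 2 that lay higher (11.6% of all genes did), and Cpt1a and Acadm the 2 that lay lower (14% of all genes). The mean was higher in AMPK KO for 17 genes and lower for 11, beside 51.2% and 48.8% of all tested genes. The median difference over the 28 was 0.18 on the log2 scale, beside 0.02 over all genes, and single differences ran from −0.76 (Acadm) to 1.04 (Slc27a4).

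**Figure D1:**
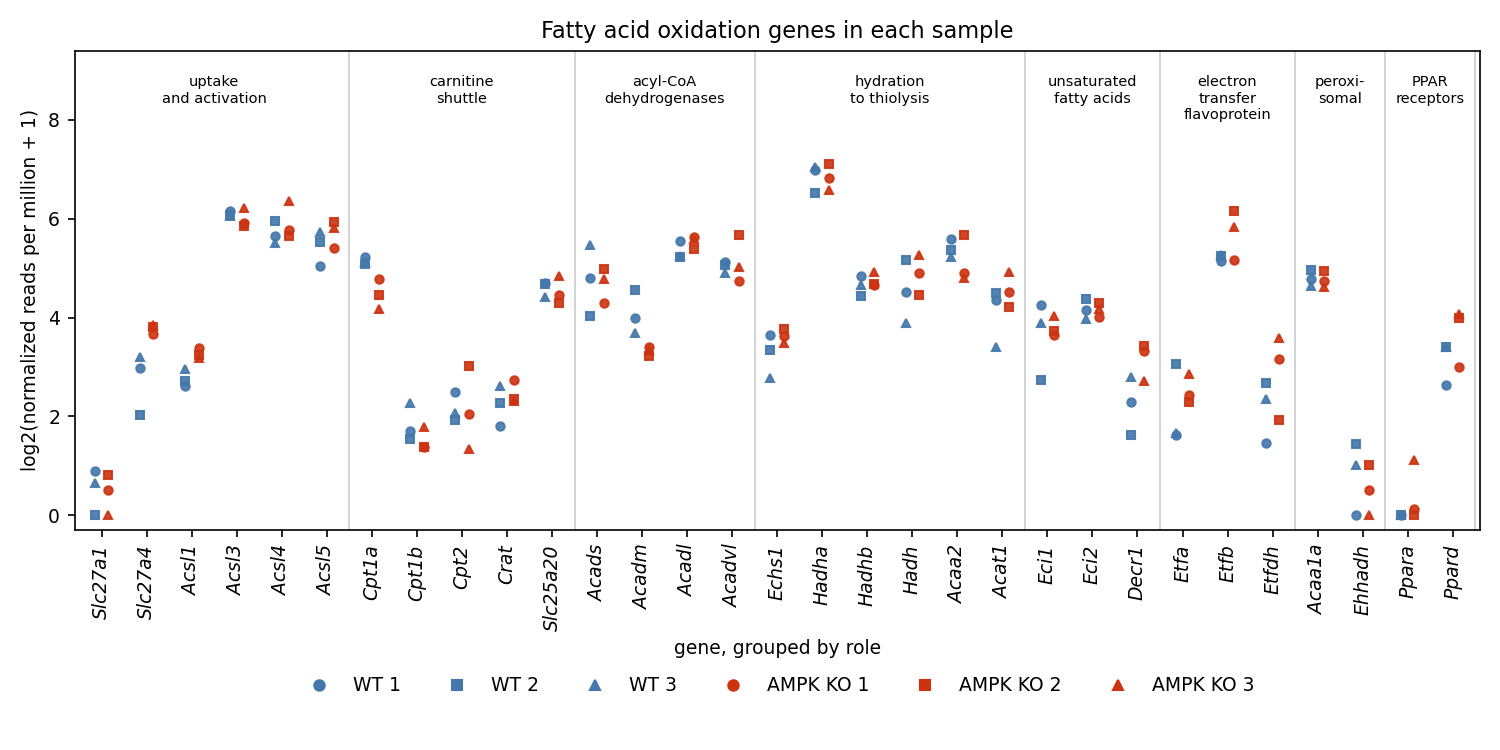
Level of each of the 31 genes in each sample, as log2 of CPM plus 1, with genes grouped by role along the x axis, blue symbols for WT and red for AMPK KO. The 2 groups are intermixed for most genes and stand apart for Slc27a4, Acsl1, Cpt1a and Acadm, while Slc27a1, Ehhadh and Ppara lie near 0.

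How large a change these 6 samples could leave unseen was read from the intervals, which are not adjusted for the number of genes. The 95% interval of the difference held 0 for 24 of the 28 genes, and it lay wholly within 1 log2 unit of 0 for 14. Its half-width was 0.65 at the median and ran from 0.36 (Acsl3) to 1.01 (Etfdh). Slc27a4, Decr1, Cpt1a and Acadm had intervals without 0 and yet missed the adjusted threshold. A change larger than a half-width could therefore go uncalled. For the 28 genes the pooled SD within groups was 0.33 at the median, beside 0.32 over all tested genes. It exceeded the SD that read counting alone gives for 27 of the 28, by 3.21 times at the median and 6.70 times at most (Hadha). The tested genes had 16 to 1477 reads per library.

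**Figure D2:**
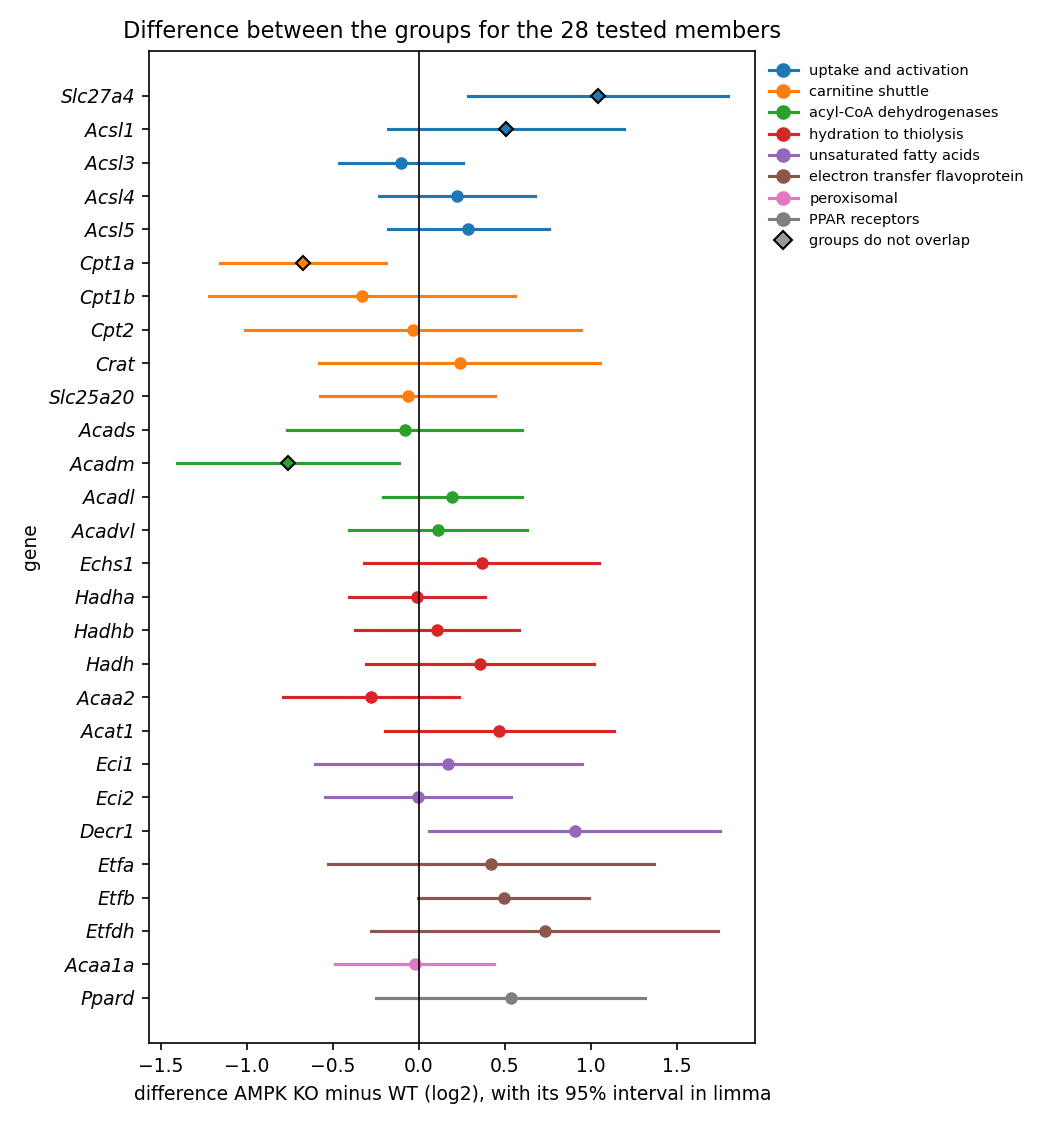
Difference between AMPK KO and WT for the 28 tested genes on the log2 scale, as points with the 95% interval from limma, coloured by role, with diamonds for genes whose groups do not overlap. The intervals of 24 genes cross 0, and those of Slc27a4 and Decr1 lie above it and those of Cpt1a and Acadm below it.

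Uptake and activation open the pathway. Slc27a4 (chr2:29802634-29817522, plus strand) encodes the fatty acid transport protein FATP4, which also has acyl-CoA synthetase activity. It had 63, 31 and 72 reads in the WT libraries and 139, 139 and 160 in those of AMPK KO. On the log2 scale these were 2.97, 2.04 and 3.19 in WT and 3.67, 3.80 and 3.85 in AMPK KO. All 3 AMPK KO samples lay above all 3 WT samples, and the WT samples were the more widely spread, with WT sample 2 the lowest. The means were 2.73 ± 0.61 and 3.77 ± 0.09 (SD, n = 3), a difference of 1.04 (SE 0.35, 95% interval 0.29 to 1.80), and on the linear scale AMPK KO stood at 211% of WT. It missed the threshold (limma, adjusted p = 0.0999), and the exact permutation test gave p = 0.1, the smallest possible with 3 samples against 3. Macrophage markers were also higher in AMPK KO, with a median difference of 1.14, and their part in the level of Slc27a4 was not tested.

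Acsl1 (chr8:46471037-46536051, plus strand) is a long-chain acyl-CoA synthetase of the outer mitochondrial membrane and the endoplasmic reticulum. It had 47, 56 and 60 reads in WT and 112, 91 and 96 in AMPK KO. The log2 values were 2.61, 2.72 and 2.96 in WT and 3.38, 3.24 and 3.18 in AMPK KO. The groups stood apart by a small gap, between WT sample 3 and AMPK KO sample 3. Their difference was 0.51 (SE 0.32, interval −0.18 to 1.19), with an adjusted p of 0.391 in limma and an exact permutation p of 0.1. Gm45244, a model on the opposite strand that GENCODE lists as awaiting experimental evidence, shares 1039 exon bases with Acsl1, and whether reads were counted by strand is not given in the sources used here.

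The other synthetases, which differ in location and preferred chain, showed smaller differences. Acsl3, found on lipid droplets and endoplasmic reticulum, had means of 6.09 in WT and 5.99 in AMPK KO. Acsl4, a gene of the X chromosome whose product prefers arachidonic acid, had 5.70 and 5.92, with AMPK KO sample 3 the highest at 6.36. Acsl5 had 5.43 and 5.72. In each of the 3 genes the groups overlapped, and adjusted p values ran from 0.482 to 0.776. Slc27a1, another transport protein, was below the filter, with 8, 0 and 5 reads in WT and 5, 8 and 0 in AMPK KO.

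The carnitine shuttle held the gene of the list with the lowest adjusted p. Cpt1a (chr19:3322334-3385733, plus strand), whose promoter is printed above, encodes the step that commits long-chain fatty acids to oxidation. It had 336, 327 and 301 reads in WT and 315, 225 and 203 in AMPK KO. The log2 values were 5.23, 5.08 and 5.13 in WT and 4.78, 4.46 and 4.18 in AMPK KO. Every AMPK KO sample lay below every WT sample, and the AMPK KO samples were spread more widely. The means were 5.14 ± 0.08 and 4.47 ± 0.30 (SD, n = 3), a difference of −0.67 (SE 0.22, interval −1.15 to −0.19), and the linear level in AMPK KO was 62.6% of that in WT. This difference did not pass the threshold (limma, adjusted p = 0.0961; exact permutation p = 0.1, the smallest possible). The 8 T cell markers also had lower means in AMPK KO, with a median difference of −0.34, while the 2 CD8 markers had higher ones, and their part in the level of Cpt1a was not tested.

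No other gene of the shuttle stood apart. Slc25a20, the carrier that exchanges acylcarnitine for carnitine across the inner membrane, had means of 4.60 ± 0.16 in WT and 4.53 ± 0.29 in AMPK KO, an adjusted p of 0.910 and an interval of −0.57 to 0.44. Cpt2, which returns the acyl group to coenzyme A inside the mitochondrion, had 2.16 ± 0.30 and 2.13 ± 0.85, and AMPK KO samples 2 and 3 were the highest (76 reads) and the lowest (18 reads) of all 6. Crat, the acetyltransferase for short chains, had 2.23 and 2.46. Cpt1b, the isoform known from muscle, had 1.84 and 1.51 at 17 to 34 reads, and the last 300 bases of its transcript are identical to those of the overlapping Gm44502 on the same strand, so its reads could belong to either. When the 5 genes were summed, the shuttle stood at 65.8 to 70.7 CPM in WT and at 52.3 to 57.8 in AMPK KO. Without Cpt1a the same sum was 32.4 to 34.3 in WT and 31.2 to 35.7 in AMPK KO, and the groups overlapped.

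The acyl-CoA dehydrogenases catalyse the first oxidation of each cycle, and they divide the chain lengths among them. Acadm (chr3:153922357-153944632, minus strand), the medium-chain enzyme, had 137, 224 and 105 reads in WT and 113, 89 and 108 in AMPK KO. Its log2 values were 3.99, 4.55 and 3.69 in WT and 3.40, 3.21 and 3.33 in AMPK KO. Here the WT samples were the more variable, and the lowest of them, sample 3, lay above the highest AMPK KO sample. The difference of −0.76 (SE 0.30, interval −1.40 to −0.11) was the most negative of the list, with AMPK KO at 54.7% of WT on the linear scale, and it did not pass the threshold (limma, adjusted p = 0.160; exact permutation p = 0.1). Acads, the short-chain enzyme, had means of 4.77 ± 0.73 and 4.69 ± 0.35. Acadl, the long-chain enzyme, had 5.34 ± 0.18 and 5.53 ± 0.14, and Acadvl, the very-long-chain enzyme of the inner membrane, 5.03 ± 0.12 and 5.14 ± 0.48. In these 3 the groups overlapped and adjusted p values were 0.596 to 0.915. The end of the Acadvl transcript overlaps that of Dvl2 on the opposite strand over 256 of its last 300 bases.

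**Figure D3:**
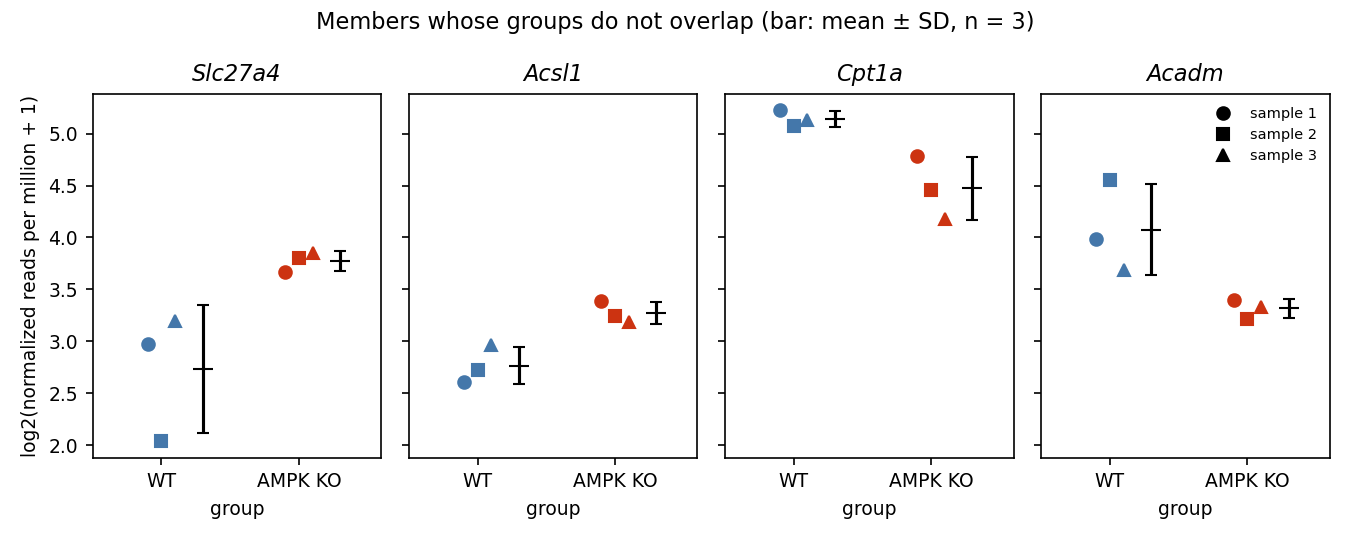
Log2 level in each sample of the 4 genes whose groups do not overlap, with the mean and SD (n = 3) beside the points of each group. Slc27a4 and Acsl1 lie higher in AMPK KO, Cpt1a and Acadm lie lower, and the group with the wider spread is WT for Slc27a4, Acsl1 and Acadm and AMPK KO for Cpt1a.

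None of the 6 genes from hydration to thiolysis passed the threshold, with or without adjustment, and all 6 intervals held 0. All 6 differences lay within 0.5 log2 units of 0, and in each gene the groups overlapped. Hadha and Hadhb encode the α and β subunits of the mitochondrial trifunctional protein, which carries out the last 3 steps on long chains. Hadha, at 905 to 1477 reads per library, had means of 6.85 ± 0.29 and 6.84 ± 0.27, with an interval of −0.41 to 0.38. Hadhb had 4.65 ± 0.21 and 4.76 ± 0.15, with an interval of −0.37 to 0.58, and 166 bases of its transcript end match Gm13910 and Gm9108. For both, a change of 1 log2 unit in either direction lay outside the interval. Echs1, the short-chain hydratase, had means of 3.26 and 3.63, and Hadh, the dehydrogenase for medium and short chains, 4.52 and 4.88. Acat1, which cleaves acetoacetyl-CoA, had 4.09 and 4.56, and in both Hadh and Acat1 the lowest of the 6 samples was WT sample 3. Acaa2, a mitochondrial thiolase, was the one with a lower mean in AMPK KO by more than 0.1, at 5.40 against 5.12.

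Unsaturated chains need auxiliary enzymes. Decr1, the 2,4-dienoyl-CoA reductase, was singled out here after its values were seen, because its unadjusted p was below 0.05. It had 36, 21 and 53 reads in WT and 107, 104 and 66 in AMPK KO. AMPK KO sample 3, at a log2 value of 2.71, fell below WT sample 3 at 2.81, so the groups overlapped. The difference was 0.91 (SE 0.40, interval 0.06 to 1.75), with an adjusted p of 0.203 in limma and an exact permutation p of 0.2. The isomerases Eci1 and Eci2, which move double bonds, had differences of 0.17 and −0.003 and overlapping groups. WT sample 2 was the lowest of the 6 for Eci1, at 2.74, and a stretch near the end of the Eci1 transcript is repeated in several other genes. The last bases of the Eci2 transcript match Eci3 at 95.5% identity over 290 bases, so reads could be shared between them.

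Electrons from the dehydrogenases pass through the electron transfer flavoprotein, whose subunits are encoded by Etfa and Etfb, to its ubiquinone oxidoreductase, encoded by Etfdh. All 3 genes had a higher mean in AMPK KO, and none passed the threshold with or without adjustment. Etfb had log2 values of 5.15, 5.24 and 5.27 in WT and 5.17, 6.15 and 5.83 in AMPK KO. AMPK KO sample 1 lay among the WT samples and the other 2 lay above them. The difference for Etfb was 0.49 (SE 0.23, interval −0.002 to 0.99; limma, adjusted p = 0.236). Etfa had 19 to 74 reads per library and a difference of 0.42. Etfdh had 16 to 131 reads, a difference of 0.73 and the widest interval of the list, −0.28 to 1.74. Summed over the 3 genes, the level was 38.3 to 49.6 CPM in WT and 47.2 to 76.7 in AMPK KO, and AMPK KO sample 1 lay within the WT range. The last 300 bases of the Etfb transcript are identical to those of the overlapping Gm45233 on the same strand, so its reads could belong to either.

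Peroxisomes shorten very long chains with enzymes of their own. Acaa1a, the peroxisomal thiolase, was among the least variable genes of the list, with means of 4.79 ± 0.16 and 4.77 ± 0.16 and an interval of −0.49 to 0.44. The end of its transcript is 95.8% identical to Acaa1b over 286 bases. Ehhadh, the bifunctional hydratase and dehydrogenase, was below the filter, with 0, 17 and 9 reads in WT and 5, 11 and 0 in AMPK KO.

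The PPAR receptors bind fatty acids and activate many of the genes above. Ppara had 0 reads in all 3 WT libraries, and a count of 0 allows a level of up to 0.300 to 0.339 CPM there. In AMPK KO it had 1, 0 and 14 reads, so its level rested on 1 library. Ppard had 48, 96 and 85 reads in WT and 83, 159 and 187 in AMPK KO. The groups of Ppard overlapped, since AMPK KO sample 1 lay below WT samples 2 and 3, and its difference was 0.53 (SE 0.37, interval −0.25 to 1.31; limma, adjusted p = 0.433).

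**Figure D4:**
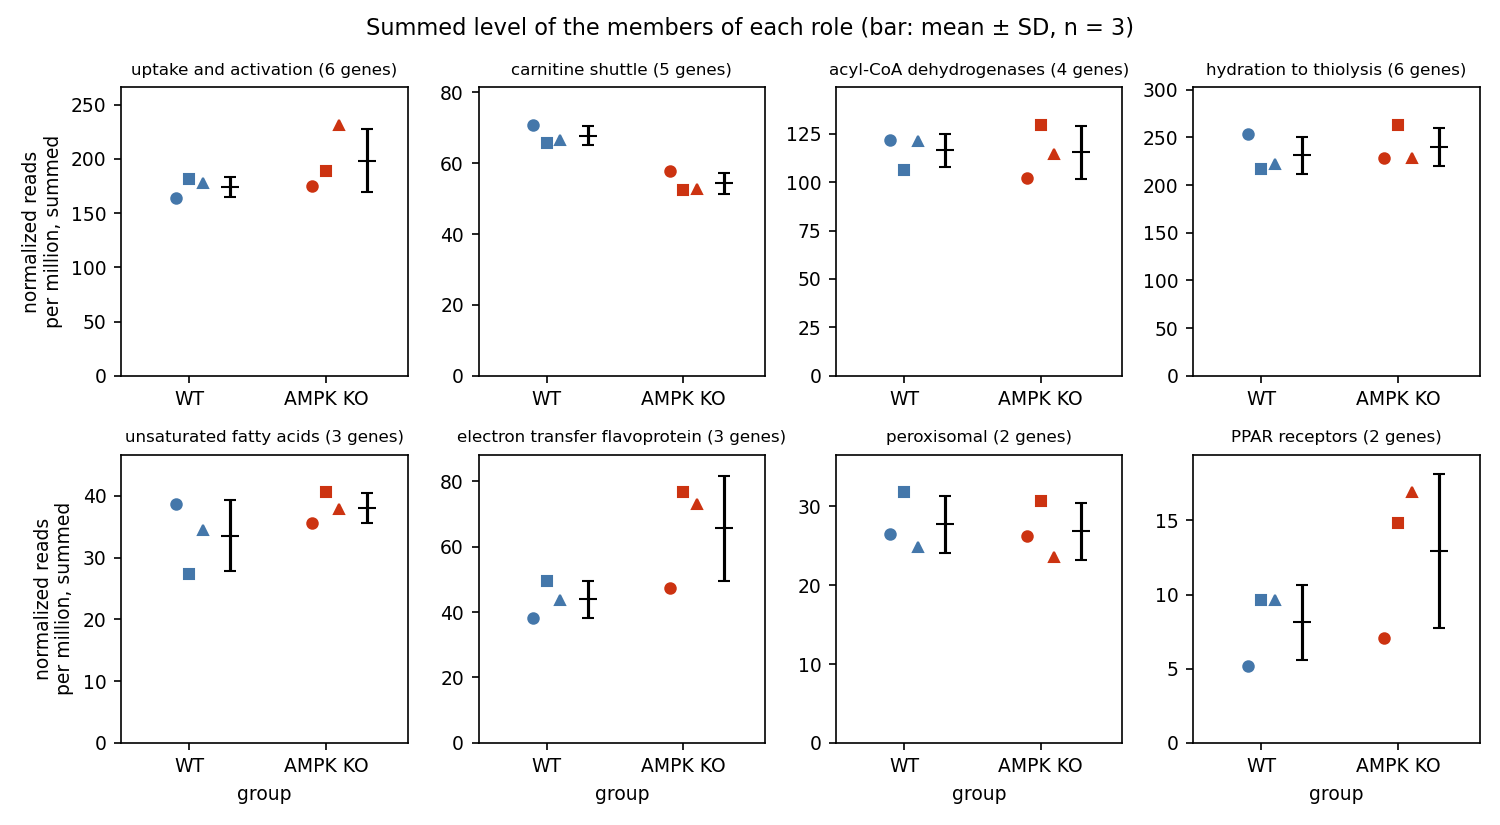
Summed level of the genes of each role in each sample, in CPM, with the mean and SD (n = 3) of each group; circles, squares and triangles are samples 1, 2 and 3. The carnitine shuttle is the one role whose groups do not overlap, at 65.8 to 70.7 in WT and 52.3 to 57.8 in AMPK KO.

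For the whole list of 31 genes the summed level was 703 ± 15.1 CPM in WT and 751 ± 62.6 in AMPK KO (SD, n = 3), with ranges of 689 to 719 and 680 to 796. AMPK KO sample 1 was the lowest of the 6, and samples 2 and 3 were the highest. Such a sum follows the genes with most reads, and no test was made on it.

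A further 76 genes of the pathway were listed, in 6 groups, and 54 of them could be tested. One, Angptl4, passed the threshold (1.85% of the 54, against 5.65% of all tested genes). With no adjustment 11 of the 54 had p below 0.05 (20.4%), 10 higher and 1 lower. Of all genes 21.3% did, 10.6% higher and 10.7% lower. The groups did not overlap for 10 (18.5%), 8 higher and 2 lower, against 25.6% of all genes, 11.6% higher and 14% lower. Angptl4 (chr17:33773750-33781830, minus strand) is a PPAR target that encodes a secreted inhibitor of lipoprotein lipase. It had 0, 15 and 6 reads in WT and 60, 32 and 73 in AMPK KO. All 3 AMPK KO samples lay above all WT samples, at log2 values of 1.99 to 2.84 against 0 to 1.32. The difference was 1.79 (SE 0.46; limma, adjusted p = 0.0367), and the exact permutation p was 0.1. Its mean was 0.69 in WT, under the filter of 1, and 2.48 in AMPK KO, so it was tested only through the group where it is high. The call was lost, with adjusted p values up to 0.159, when any of WT sample 1, WT sample 3, AMPK KO sample 1 or AMPK KO sample 3 was left out, and under 8 of 13 alternatives in all. The largest fall was that of Acad10, a dehydrogenase relative at 6 to 26 reads, with a difference of −0.68 and an adjusted p of 0.423, and its groups overlapped. Acad10 in turn reached the filter only through WT, with means of 1.55 and 0.86.

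By group, the 7 tested genes of uptake, activation and carnitine handling all had higher means in AMPK KO (51.2% of all tested genes did), and the groups did not overlap for 3, all of them higher (11.6% of all genes). These 3, and the genes named below for the other groups, were chosen after their values were seen. Cd36, a fatty acid translocase, differed by 1.02 (adjusted p = 0.0855). The lipid chaperones Fabp4 and Fabp5 differed by 1.48 (adjusted p = 0.0889) and 0.76 (adjusted p = 0.111). None of these passed the limma threshold. Cd36, Fabp4 and Angptl4 are also known from macrophages, whose 11 markers had a median difference of 1.14, and the part of these cells in the results was not tested. The published methods isolate CD4 T cells with CD4 microbeads or a cell sorter. In these libraries the macrophage marker Csf1r had linear means of 175 CPM in WT and 359 in AMPK KO. Adipocytes also express Cd36, Fabp4 and Angptl4, and the part of adipocytes was not tested either. Of 6 adipocyte markers, Plin1, Lep and Cfd had 0 reads in every library. Adipoq had 15, 4 and 3 reads in WT and 4, 0 and 0 in AMPK KO. Retn had 0 in each WT library and 2, 10 and 1 in AMPK KO, and Ucp1 had 0 to 15. The sum over the 6 markers was 0.339 to 1.90 CPM in WT and 0.0837 to 1.27 in AMPK KO. Of 16 tested genes of other mitochondrial acyl-CoA oxidation, 9 had a higher and 7 a lower mean, with a median difference of 0.08. The groups did not overlap for 1 of them, Acadsb, the short/branched-chain dehydrogenase, which was higher by 0.90 (adjusted p = 0.0760). Of 13 peroxisomal genes, 7 were higher and 6 lower. Among 9 regulators and PPAR targets, 4 were higher and 5 lower, and the median was −0.04. For 3 of the 9 the groups did not overlap (Angptl4 higher, Ppargc1b and Foxo1 lower; 25.6% of all genes). Ppargc1b, a coactivator of mitochondrial genes, differed by −0.57 (adjusted p = 0.219) and was the 1 lower gene among the 11 with an unadjusted p below 0.05, and Foxo1 differed by −0.17. Of the malonyl-CoA genes, Acaca, the carboxylase that AMPK phosphorylates, differed by −0.06 and Mlycd, the decarboxylase, by 0.42, and both had overlapping groups. Of the 7 lipolysis genes, 5 were higher and 2 lower, and none passed the threshold. G0s2, an inhibitor of lipolysis, was the 1 without overlap, higher by 1.22 (adjusted p = 0.160).

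**Figure D5:**
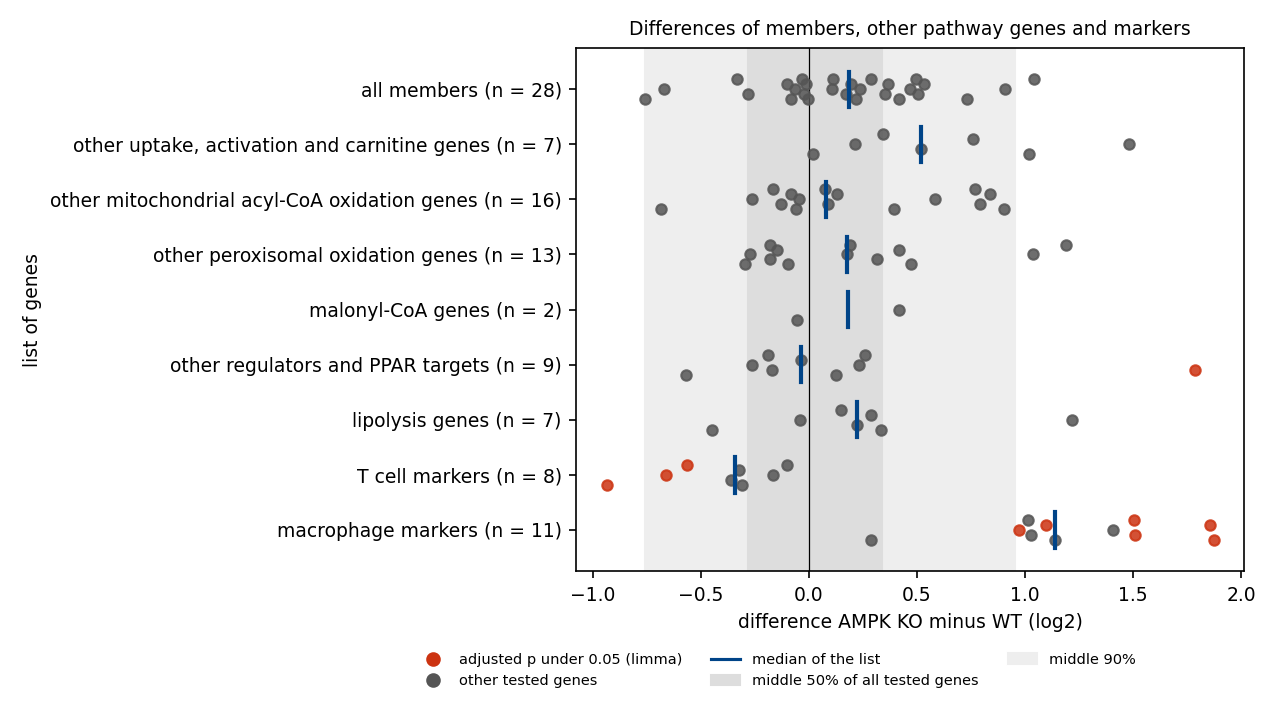
Difference between AMPK KO and WT on the log2 scale for each tested gene of the list, of the other pathway groups and of the T cell and macrophage markers, with the median of each as a blue line and the middle 50% and 90% of all tested genes in grey. The listed genes have a median of 0.18 with none past the adjusted threshold, Angptl4 is the single call among the other pathway genes, and the macrophage markers lie to the right at a median of 1.14.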

How the data were processed

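The authors had a company prepare QuantSeq 3′ libraries, normalize the reads by TMM and CPM and deposit log2 values of the normalized value plus 1. The submitters' processing notes name Bowtie2, bedtools and mm10. Samples were grouped by their titles. Each library has 23282 lines, and 35 symbols stand on several lines (79 in all). The values fall on steps of 1 read: up to 100 reads, 100% of them lay no more than 0.1 reads from a step, and read counts were taken from the steps.

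The deposited log2 values were tested with lmFit and eBayes (trend) of limma 3.58.1 in R 4.3.3, two-sided, with genotype as the term, over 11279 genes (mean log2 at or above 1). P values were adjusted by Benjamini-Hochberg over all of them, with a threshold of 0.05. Differences on the log2(value + 1) scale understate those of low genes. Intervals are at 95%, and the floor of 3 reads covers counting error only. Scripts were tested on simulated data. As a variance, the difference between samples of 1 group was 9.69 to 24.3 times what read counting gives (median over 10543 genes).

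Every sample value is given for Cpt1a, for members past the threshold or with groups that do not overlap, for the highest and lowest difference and, of the other pathway genes, for those past the threshold and the largest rise. Other members are summarised by means, differences or reads, and what was singled out among them (Decr1, Etfb) was chosen after the values were seen. The members, gene lists and markers were chosen with earlier results of these data known. Transcript ends (last 300 bases, GENCODE M21) were compared with BLAST 2.17.0 at 95% identity over at least 75 bases.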

Additional observations from a re-analysis of the deposited data

How the results depend on the processing

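No alternative at an adjusted p of 0.05 called any of the listed genes, and at an adjusted p of 0.1 there were 2, Cpt1a and Slc27a4. The median difference of the listed genes stayed between 0.12 and 0.21, and 18 of the 28 kept their direction under every alternative in which they were tested (those with a mean log2 under 3 were not tested under the stricter filter). The difference of Cpt1a ran from −0.83 to −0.52 (adjusted p 0.0719 to 0.276), that of Slc27a4 from 0.69 to 1.27 (0.0887 to 0.240), that of Acsl1 from 0.41 to 0.60 (0.352 to 0.640) and that of Acadm from −0.95 to −0.52 (0.122 to 0.368). Ranges were also wide for Etfa (0.17 to 0.89), Etfb (0.28 to 0.77), Etfdh (0.38 to 1.22) and Ppard (0.28 to 0.87). The same held for Hadh (0.04 to 0.68) and Decr1 (0.60 to 1.19). Among the ranges that crossed 0 were those of Cpt2 (−0.48 to 0.37), Eci1 (−0.27 to 0.48) and Acads (−0.45 to 0.27). None of these genes was called under any alternative. The difference of Prkaa1 ran from −0.56 to −0.22 (0.206 to 0.760).

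Over all genes, the 637 calls became 308 with no filter on low values, where more genes were tested, and 1142 at an adjusted p of 0.1. Leaving out 1 sample gave 127 to 1243 calls, namely 127 without WT 1, 133 without WT 3, 173 without AMPK KO 1 and 1243 without AMPK KO 2, and the cause was not tested. Of the other pathway genes, 0 passed with no filter, with a mean log2 of at least 3 (a filter that Angptl4 does not reach), with a pseudocount of 0.25 and with limma voom, and 4 passed at an adjusted p of 0.1. Leaving out 1 sample gave 0 to 3 of them: 3 without WT 2 (Echdc1, Angptl4, Fabp4), 3 without AMPK KO 2 (Echdc1, Decr2, Angptl4) and 0 without any other. The difference of Angptl4 ran from 1.44 to 3.55 (adjusted p 0.0199 to 0.159), with 2.69 at a pseudocount of 0.25 and 3.55 in limma voom.

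Samples that share a number did not deviate together: over all tested genes, the correlation of their deviations from the group means was −0.08, −0.32 and −0.16. With the replicate number as a block, 102 of all genes, 0 listed genes and 0 other pathway genes passed. Of the tests planned on recovered reads, limma voom was run, and the edgeR quasi-likelihood test was not, because it was kept to deposited counts and the deposited unit is log2. Scaling to reads outside Rn45s moved the median of all genes to −0.05 and changed no direction of the genes named with every sample value. Depth limits the statements on Slc27a1, Ehhadh and Ppara, at 0 to 17 reads per library.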
